A study of Drosophila melanogaster with 44 samples.

Results

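The effect of depleting the Mod(mdg4) variant N in ovarian somatic cells (OSC) was measured in 4 of the 44 samples of the study: replicates 1 and 2 of OSC transfected with siRNA against EGFP, the control, and replicates 1 and 2 of OSC transfected with siRNA against Mod(mdg4)-N. All are mRNA-seq libraries of poly(A)+ RNA from the same follicle cell-derived line of Drosophila melanogaster, grown at 26 degrees, and the labels give no other allele or agent. Of 17807 genes listed, 8106 exceeded 1 CPM, the reads of a gene as a share of its library, in at least 2 of the 4 libraries and were tested. The CPM printed here are TMM-normalized, so that a shift shared by all genes between libraries is removed. The study also holds RNA-seq of OSC after KD of all Mod(mdg4) variants (2 libraries, set against the same EGFP KD libraries). It further holds RNA-seq of wild-type and Mod(mdg4)-N mutant ovaries (3 libraries each). The paper describes the mutant ovaries as homozygous for the frameshift allele RN1-2 and the wild type as y1 w1118. Both sets are used below only for a few genes and for the transcripts of the mitochondrial genome. The labels do not say whether the replicates came from separate cultures, so the p-values measure only the spread between these libraries, which may be technical, and results from 1 cell line after transient KD need not hold in tissue.

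mod(mdg4) encodes a family of BTB-domain chromatin proteins that share their first exons and differ in a last exon joined by cis- or trans-splicing. The best known variant works with Su(Hw) and CP190 at insulators, which can block communication between an enhancer and a promoter. Variant N has been studied at the telomeric retrotransposon HeT-A, and the comparison asks which annotated genes changed when this 1 variant was depleted. Counts of transposons were not analysed here.

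The study designed 3 siRNAs against variant N, and their sense strands are shown because they fix which transcripts could be cleaved. The capitals mark the bases opposite guide bases 2 to 8 (the seed), and the last 2 letters are the overhang.
N_1: agcaggaacugGAGGAGUatt
N_2: cuaccgagaucGAGAUGCatt
N_3: ccuaggaguuaUCAGCUAatt
In the dm6 assembly the 19 paired bases of N_1 lie at chr3R:21372819-21372837, those of N_2 at chr3R:21372687-21372705 and those of N_3 at chr3R:21372531-21372549, all on the minus strand. All 3 sites fall in the exon at chr3R:21372173-21373080 of mod(mdg4) (FBgn0002781, chr3R:21350846-21377401, minus strand), which 1 of its 22 annotated transcripts holds as its last exon. N_1 and N_2 lie wholly in coding sequence, and N_3 covers 2 coding bases and runs past the end of the coding sequence. Among annotated transcripts, each site was otherwise found only in 3 precursor genes of the locus, pre-mod(mdg4)-AA, pre-mod(mdg4)-N and pre-mod(mdg4)-O. The sources used here do not say which of the 3 siRNAs was used for the RNA-seq.

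The level of mod(mdg4) over all its variants was 620 and 594 CPM in the EGFP KD libraries and 567 and 549 CPM in the Mod(mdg4)-N KD libraries. Both KD libraries were below both controls, but the log2 fold change was only -0.12 (SE 0.07, adjusted p = 1.00 by edgeR's quasi-likelihood test with Benjamini-Hochberg adjustment over the 8106 genes). Gene-level counts add up all variants, so they do not show how far variant N itself fell, and its KD could not be checked in these tables. The mean transcript length of mod(mdg4), which RSEM weights by the estimated share of each variant, was 1652 and 1686 bases in EGFP KD and 1644 and 1645 bases in Mod(mdg4)-N KD, so that the groups did not overlap. Of the 24 genes in the list of mod(mdg4) and its precursors, 19 were tested and none was called. pre-mod(mdg4)-O, which holds the siRNA sites, had 5.62 and 5.32 CPM in the controls and 2.71 and 4.97 CPM in the KD (log2 fold change -0.53). pre-mod(mdg4)-N had 1.84 and 2.35 CPM in the controls and 2.17 and 1.96 CPM in the KD, so its groups overlapped. pre-mod(mdg4)-P had 6.33 and 6.25 CPM in the controls and 8.89 and 8.06 CPM in the KD (log2 fold change 0.43, unadjusted p = 0.0322 in the edgeR fit). Reads in exons that these precursors share with mod(mdg4) are split between the genes by RSEM, so these values are uncertain.

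CG9628 and 5-HT2A passed the test in the Mod(mdg4)-N KD, and both fell. They were 0.0247% of the 8106 tested genes, and no gene rose. 5-HT2A encodes a receptor for serotonin that acts through the Gq protein and calcium, and CG9628 is a protein-coding gene known by its annotation number.

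CG9628 (FBgn0036433, chr3L:14622796-14628174, plus strand, dm6) had 16.0 and 12.8 CPM in the EGFP KD libraries and 1.36 and 1.33 CPM in the Mod(mdg4)-N KD libraries. These stand for 270 and 207 reads in the controls and 25 and 19 reads in the KD. Both KD libraries sat far below both controls and close to each other. The mean fell from 14.4 ± 2.25 to 1.34 ± 0.0173 CPM (SD, n = 2 each), a log2 fold change of -3.41 (SE 0.22, 10.65-fold lower, edgeR adjusted p = 0.00481).

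5-HT2A (FBgn0087012, chr3R:4612870-4633304, plus strand, dm6) had 13.5 and 16.1 CPM in the controls and 2.28 and 3.43 CPM in the KD, from 228, 260, 42 and 49 reads. The lowest control was well above the highest KD library. The mean fell from 14.8 ± 1.82 to 2.86 ± 0.817 CPM (SD, n = 2 each), a log2 fold change of -2.39 (SE 0.22, 5.25-fold lower, edgeR adjusted p = 0.0343). Per transcript length the receptor stood at 4.39 and 5.30 TPM, a length-corrected share of the library, in the controls and at 0.75 and 1.04 TPM in the KD.

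The number of calls moved between settings. In 12 other settings the log2 fold change of CG9628 stayed between -3.56 and -3.24 (adjusted p from 4.9e-20 to 0.0782) and that of 5-HT2A between -2.69 and -2.10 (adjusted p from 3.1e-12 to 0.0782), but edgeR on the 3 OSC groups in one fit called 0 genes (141 at an unadjusted p under 0.05), limma-voom kept only CG9628, DESeq2 called 7 genes, and leaving out EGFP KD replicate 1 gave 45 calls, EGFP KD replicate 2 gave 3, Mod(mdg4)-N KD replicate 1 gave 5 and replicate 2 gave 3.

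**Figure D1:**
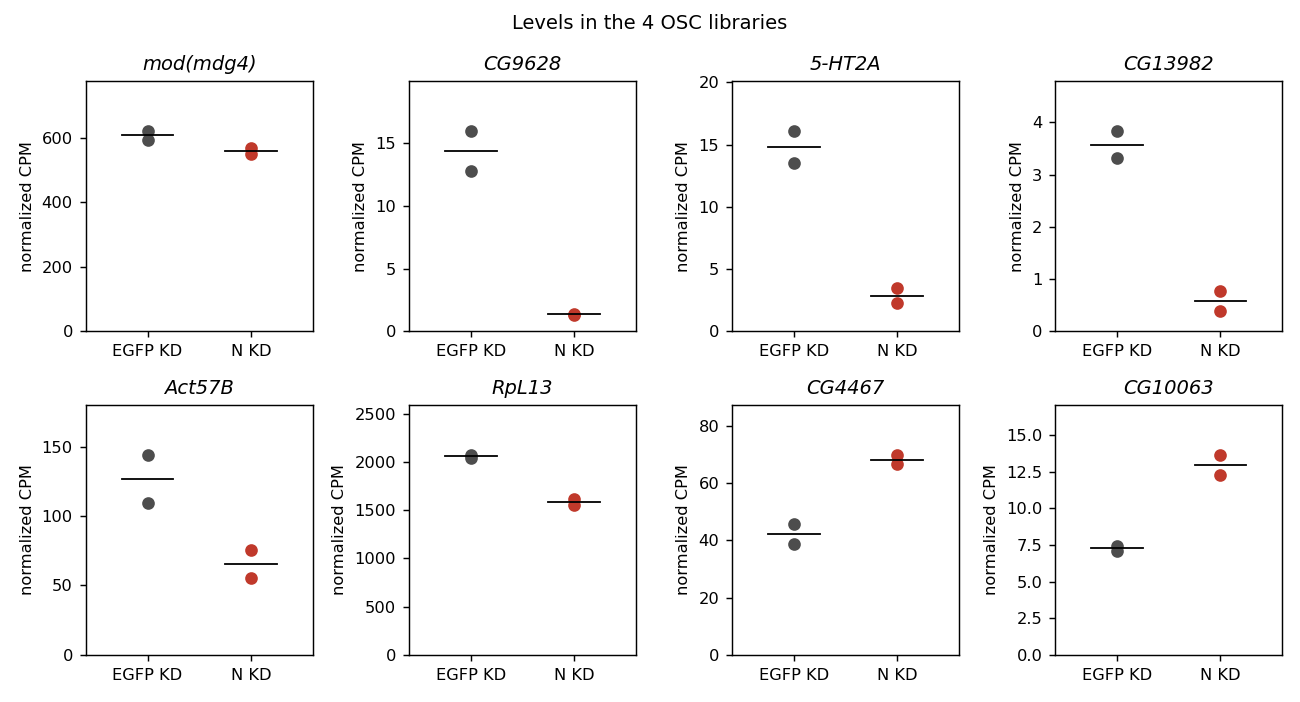
Normalized CPM (y axis, from 0) of 8 genes in the 2 EGFP KD libraries (grey points) and the 2 Mod(mdg4)-N KD libraries (red points), with a black bar at each group mean. CG9628 and 5-HT2A, the genes that passed the test, fell from 12.8 CPM or more in every control to 3.43 CPM or less in every KD library, while mod(mdg4) summed over its variants stayed between 549 and 620 CPM.

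The siRNAs were compared with the transcripts of both genes. No annotated transcript of CG9628 held a match to the seed of any of the 3 siRNAs, and the longest run of bases that it shared with them was 7 for N_1, 6 for N_2 and 7 for N_3. In 5-HT2A the seed of N_2 matched once, and the longest shared runs were 8, 8 and 7 bases. For comparison, a seed match was present in 28.6% (N_1), 20.2% (N_2) and 13.4% (N_3) of 8045 tested genes. Whether an siRNA acted on these genes directly was not tested.

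The promoters of both genes, 250 bases before to 49 bases after the annotated start site, are shown because insulator proteins often act near start sites. Capitals mark GAGAG on either strand, the letters bound by the GAGA factor Trl.
CG9628 (chr3L:14622546-14622845, plus strand, dm6): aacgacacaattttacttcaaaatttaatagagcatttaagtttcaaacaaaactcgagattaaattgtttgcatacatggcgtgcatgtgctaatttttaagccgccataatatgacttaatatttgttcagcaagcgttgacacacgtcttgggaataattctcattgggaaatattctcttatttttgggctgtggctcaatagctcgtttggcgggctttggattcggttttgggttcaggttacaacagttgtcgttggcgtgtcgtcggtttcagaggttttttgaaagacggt
5-HT2A (chr3R:4612620-4612919, plus strand, dm6): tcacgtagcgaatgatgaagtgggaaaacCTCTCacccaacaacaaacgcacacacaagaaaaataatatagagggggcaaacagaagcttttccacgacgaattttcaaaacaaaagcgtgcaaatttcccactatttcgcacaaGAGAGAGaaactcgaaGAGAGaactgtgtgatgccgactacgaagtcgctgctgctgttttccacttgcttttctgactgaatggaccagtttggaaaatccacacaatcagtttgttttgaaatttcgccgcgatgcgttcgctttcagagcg
The window of 5-HT2A held 4 matches to GAGAG, 2 of them overlapping in 1 run and 1 on the minus strand, and that of CG9628 held 0. Among 13945 protein-coding promoters of the same length, 29.7% held at least 1 match. Neither window held TATAAA (the TATA box, in 45.8% of promoters), CGATA (bound by BEAF-32, in 47.4%) or TATCGATA (bound by Dref, in 9.36%, which contains the BEAF-32 letters), searched on both strands. All 3 transcripts of CG9628 and 4 of the 5 of 5-HT2A started at these sites.

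None of the neighbours of the 2 genes passed the test. Within 25 kb of CG9628, 2 of 4 genes were tested. RecQ5, a DNA helicase gene whose 3′ end overlaps that of CG9628 on the other strand, had 61.3 and 61.1 CPM in the controls and 56.7 and 57.5 CPM in the KD (log2 fold change -0.10). dlp, a cell-surface glypican gene, had 202 and 230 CPM in the controls and 194 and 206 CPM in the KD, and shd, which encodes an ecdysone hydroxylase, had 0 reads in all 4 libraries. CG34039, the nearest tested gene on the other side, had 9.53 and 9.65 CPM in the controls and 9.82 and 10.9 CPM in the KD. The counting command given in the methods names no strand setting, so reads in the stretch shared by CG9628 and RecQ5 cannot be told apart.

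Within 25 kb of 5-HT2A, 8 of 12 genes were tested, none was called and their median log2 fold change was -0.02, against -0.003 over all tested genes. The nearest tested gene before it, lncRNA:CR44317, a noncoding transcript, had 3.14 and 3.83 CPM in the controls and 2.44 and 1.47 CPM in the KD (log2 fold change -0.81, unadjusted p = 0.0357 in the edgeR fit). The nearest after it, CG9775, had 167 and 164 CPM in the controls and 169 and 173 CPM in the KD. rpk, which encodes a sodium channel subunit, had 15.2 and 13.9 CPM in the controls and 20.3 and 17.3 CPM in the KD (log2 fold change 0.38, unadjusted p = 0.0199). The importin gene Karybeta3 stayed between 708 and 747 CPM. The annotation lists 28 transposon insertions within 25 kb of 5-HT2A, a number reached by 1.28% of tested genes, and 1 within 25 kb of CG9628, which is also the median of tested genes. Around mod(mdg4) itself, 1 of 5 genes within 25 kb was tested, aus, with 166 and 143 CPM in the controls and 151 and 135 CPM in the KD.

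Of the genes for serotonin receptors, its transport and its synthesis, 4 of 9 were tested and 5-HT2A was the only one called. 5-HT1A, a receptor that lowers cyclic AMP, had 13.7 and 11.5 TPM in the controls and 11.4 and 9.45 TPM in the KD (log2 fold change -0.22 on the CPM scale). The related receptor 5-HT1B had 4.50 and 4.16 TPM in the controls and 4.22 and 3.58 TPM in the KD (log2 fold change -0.10). Both pairs of groups overlapped on the CPM scale. Thus on the TPM scale 5-HT1A was the most abundant receptor in the controls, with 5-HT2A and 5-HT1B at similar levels, and in the KD 5-HT2A was the lowest of the 3. 5-HT2B had no more than 0.14 CPM and 5-HT7 no more than 0.0618 CPM in any of the 4 libraries, under the CPM of 3 reads. Ddc, the decarboxylase that makes serotonin and dopamine, had 3.49 and 4.14 CPM in the controls and 4.93 and 4.97 CPM in the KD. Of 11 genes of Gq and calcium signalling, the pathway below 5-HT2A, 10 were tested, none was called and their median log2 fold change was -0.05. Galphaq, the Gq subunit itself, had 91.9 and 92.8 CPM in the controls and 101 and 91.9 CPM in the KD. Itpr, the calcium channel of the endoplasmic reticulum, had 88.6 and 85.9 CPM in the controls and 83.3 and 76.8 CPM in the KD.

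The difference between the groups was small for nearly all other genes. The median absolute log2 fold change was 0.07, and the lower and upper 0.05 quantiles of the log2 fold change were -0.26 and 0.26. An unadjusted p under 0.05 was reached by 228 genes (2.81% of those tested), 136 higher and 92 lower. Both KD libraries were above both controls in 13.5% of genes and below them in 14.0%. A 2-fold or larger difference was seen in 30 genes (0.370%), 14 higher and 16 lower, and 24 of them had an unadjusted p under 0.05. These were mostly weakly expressed, with the level of a gene taken as the mean of its 2 group means. Their median level was 1.28 CPM, or a mean of 20.8 reads, against 42.8 CPM over all tested genes. Of the 6441 genes with a level above 10 CPM, 0 differed 2-fold. CG9628 and 5-HT2A were above 10 CPM in both controls, but their level over both groups was below it because of their fall. The 30 genes comprised 23 protein-coding genes, 6 noncoding RNAs and 1 pseudogene, while noncoding RNAs were 3.17% of tested genes. By arm, 11 lay on 3R, 6 on 2L, 6 on 2R, 3 on 3L, 3 on X and 1 on 4, where 1950, 1416, 1649, 1556, 1407 and 67 genes were tested.

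Differences between single libraries give the scale for this. Over the 8106 genes, the SD of the log2 ratio of CPM + 1 was 0.237 between the 2 EGFP KD libraries and 0.204 between the 2 Mod(mdg4)-N KD libraries. For the 4 pairs of 1 control and 1 KD library it ran from 0.176 to 0.236. A 2-fold or larger ratio was found in 32 and 13 genes within the groups and in 15 to 34 genes between them. By the SD over all genes, no KD library was farther from a control than the controls were from each other.

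**Figure D2:**
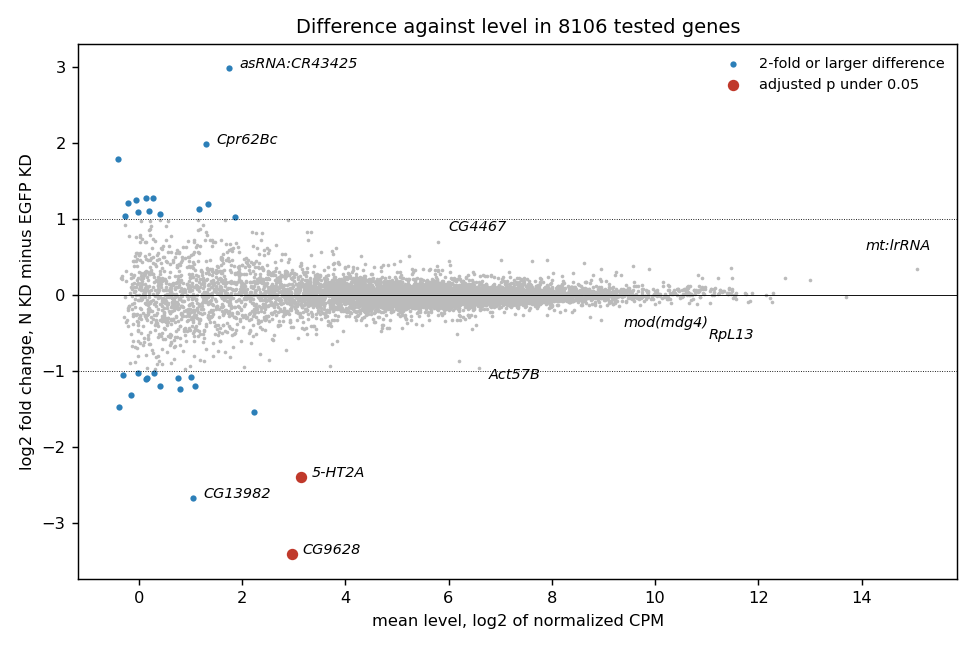
Log2 fold change, Mod(mdg4)-N KD minus EGFP KD (y axis), against the log2 of the mean normalized CPM (x axis) for 8106 tested genes (grey). Red points passed an adjusted p under 0.05 and blue points had a 2-fold or larger difference: CG9628 and 5-HT2A stand apart from other genes of their level, and most blue points lie at the left edge, near 1 CPM.

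Outside the 2 called genes, the largest fall was in CG13982 (FBgn0031811, chr2L:6412315-6415335, dm6), with 3.32 and 3.83 CPM in the controls and 0.38 and 0.771 CPM in the KD. The groups were well apart, but the counts were low (56 and 62 reads against 7 and 11). CG13982 was under 1 CPM in both KD libraries, so it passed the filter only through the controls. Its log2 fold change of -2.67 (SE 0.38) did not pass the edgeR test (adjusted p = 0.376). DESeq2 called CG13982, and its adjusted p ran from 3.4e-05 to 0.973 over the 10 other settings in which it was tested. The other lower genes named by size were lncRNA:CR41257, Sobp, alpha-Est5, CG45095, the olfactory co-receptor gene Ir25a, asRNA:CR44275 and the fatty acid desaturase gene Desat2, with log2 fold changes from -1.47 to -1.09 at mean control levels of 1.12 to 2.96 CPM. None passed the test, and lncRNA:CR41257, alpha-Est5, Ir25a and Desat2 were under 1 CPM in both KD libraries, so they passed the filter on low values only through the controls. Sobp and asRNA:CR44275 had only 1 KD library above 1 CPM, so they too needed the controls to pass.

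Among genes with larger values in the KD, asRNA:CR43425, a noncoding RNA opposite unc-13 on chromosome 4, had 1.48 and 0 CPM in the controls and 6.89 and 5.04 CPM in the KD (log2 fold change 2.98, SE 0.75). The controls differed widely for this gene, and without strand its reads and those of unc-13 cannot be told apart. Cpr62Bc, a cuticle protein gene, had 0.888 and 1.11 CPM in the controls and 5.26 and 2.59 CPM in the KD (log2 fold change 1.99, SE 0.42). PGRP-LF, which encodes an inhibitor of the Imd immune pathway, CG43675, the Tolloid-family protease gene tok, CG11029, CG13215, the myosin gene Myo28B1, asRNA:CR45130 and b6 had log2 fold changes from 1.07 to 1.28 at control means of 0.515 to 1.54 CPM. None of these passed the test. PGRP-LF, CG43675, tok, CG11029, asRNA:CR45130 and b6 were under 1 CPM in both controls, so they passed the filter only through the KD libraries. asRNA:CR43425 and Cpr62Bc had only 1 control above 1 CPM, so they too passed it through the KD libraries, which by itself favours positive values.

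Better measured genes showed smaller differences, which did not pass the main test but were called by DESeq2. RpL13, a protein of the large ribosomal subunit, had 2075 and 2043 CPM in the controls and 1557 and 1619 CPM in the KD (log2 fold change -0.37, SE 0.06, edgeR adjusted p = 0.665). Act57B, an actin gene, had 109 and 144 CPM in the controls and 55.4 and 75.5 CPM in the KD (log2 fold change -0.96, SE 0.17, edgeR adjusted p = 0.702). CG4467 had 45.7 and 38.7 CPM in the controls and 70.0 and 66.6 CPM in the KD (log2 fold change 0.69, SE 0.10, edgeR adjusted p = 0.376). Mmp1, a secreted matrix metalloproteinase gene, had 214 and 192 CPM in the controls and 265 and 294 CPM in the KD (log2 fold change 0.46, SE 0.09). In each of these 4 genes the 2 groups were separate. The next genes were not called by DESeq2 but were called by edgeR with the replicate number as a block. CG10063 had 7.46 and 7.11 CPM in the controls and 13.7 and 12.3 CPM in the KD (log2 fold change 0.83, SE 0.15), and Ppn, an extracellular matrix gene, had 80.5 and 88.1 CPM in the controls and 55.3 and 63.1 CPM in the KD (log2 fold change -0.51, SE 0.10). CG6044 had 105 and 96.5 CPM in the controls and 68.5 and 79.7 CPM in the KD, and unc-104, a kinesin gene, had 95.3 and 115 CPM in the controls and 73.5 and 87.5 CPM in the KD. pre-rRNA:CR45845, one of many near-identical rRNA copies and so uncertain, had 121 and 95.0 CPM in the controls and 149 and 150 CPM in the KD.

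Among the 30 genes with a 2-fold difference, 2 pairs lay within 25 kb of each other, and in both pairs the members differed the same way. CG13215 and Listericin, an antibacterial protein gene, are 1630 bases apart on 2R and had log2 fold changes of 1.20 and 1.04. alpha-Est7 and alpha-Est5, carboxylesterases of the alpha-esterase cluster, are 9742 bases apart on 3R and had log2 fold changes of -1.07 and -1.20. alpha-Est7 had 2.37 and 3.15 CPM in the controls and 1.46 and 1.12 CPM in the KD, and alpha-Est5 had 1.72 and 1.98 CPM in the controls and 0.705 and 0.911 CPM in the KD. The other 4 tested genes named alpha-esterase, a set looked up after these values were seen, had log2 fold changes from -0.06 to 0.03, among them alpha-Est9 with 147 and 150 CPM in the controls and 156 and 140 CPM in the KD.

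Few genes were low in 1 library only. CG32857 had 110, 82.7 and 101 CPM in 3 libraries and 2.17 CPM in Mod(mdg4)-N KD replicate 2, and CG18542 had 14.1, 20.7 and 17.4 CPM and then 0 in the same library. 7SLRNA:CR32864, a copy of the signal recognition particle RNA, was at 0 in Mod(mdg4)-N KD replicate 1 alone, and CG46302 at 0 in EGFP KD replicate 2 alone. These 4 genes were chosen after their values were seen.

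Of the gene lists on insulators, telomeres, silencing, signalling and cell types, no member other than 5-HT2A was called. These lists were chosen with earlier results of these data known. All 14 insulator and architectural protein genes were tested and none had an unadjusted p under 0.05. Their median log2 fold change was -0.07, with a range from -0.16 to 0.01, and it was -0.023 without EGFP KD replicate 1, -0.123 without EGFP KD replicate 2, -0.104 without Mod(mdg4)-N KD replicate 1 and -0.032 without Mod(mdg4)-N KD replicate 2. Without overlap 4 were lower and 0 higher, beside 14.0% and 13.5% of all tested genes. su(Hw), whose protein the paper names as a partner of variant T, had 136 and 127 CPM in the controls and 124 and 126 CPM in the KD. Cp190, whose product belongs to the same complex of variant T, had 304 and 273 CPM in the controls and 289 and 256 CPM in the KD. Dref had the lowest p of the list, with 181 and 162 CPM in the controls and 156 and 151 CPM in the KD (log2 fold change -0.16, unadjusted p = 0.0796). The 9 factors of promoter pausing and elongation had a median of 0.04, with Spt6, the most abundant, at 337 and 315 CPM in the controls and 321 and 308 CPM in the KD.

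All 18 telomere capping genes and HeT-A regulators were tested and none was called. Their median log2 fold change was 0.03, with 6 higher and 1 lower without overlap, beside 13.5% and 14.0% of all tested genes. twin, the catalytic subunit of the CCR4 deadenylase, had 125 and 120 CPM in the controls and 108 and 102 CPM in the KD (log2 fold change -0.22, unadjusted p = 0.0183). Ku80, a DNA end-binding protein, had 79.1 and 70.1 CPM in the controls and 87.3 and 87.7 CPM in the KD (log2 fold change 0.23, unadjusted p = 0.0312). cav, which encodes the capping protein HOAP, had 29.7 and 28.6 CPM in the controls and 29.8 and 33.0 CPM in the KD. Within 100 kb of the outer arm ends, 19 of 37 genes were tested: 11 on 2L, 2 on 2R, 5 on 3R, 1 on 4 and 0 on 3L and X. None had an unadjusted p under 0.05, and the median over all these arms was 0.005. Most of the tested genes lay on 2L. The paper found variant N at the repeats beside right-arm telomeres but not at those of left arms. The pooled median therefore says little about genes near bound repeats. The largest difference at any arm end was in CG9380 on 2R, with 5.62 and 4.64 CPM in the controls and 4.07 and 3.15 CPM in the KD (unadjusted p = 0.0694). All 9 genes listed near the end of 3L had at most 0.0592 CPM.

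The 20 genes of the somatic piRNA pathway, which silences transposons in these cells, had a median log2 fold change of -0.0002. piwi had 1372 and 1137 CPM in the controls and 1351 and 1193 CPM in the KD, and armi, the helicase that helps load it, had 1327 and 1245 CPM in the controls and 1327 and 1270 CPM in the KD. The 10 genes of the siRNA and miRNA machinery had a median of 0.03. No member of either list had an unadjusted p under 0.05.

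Signalling lists gave single members only. upd3, a ligand of the JAK-STAT pathway, had 12.3 and 9.34 CPM in the controls and 15.9 and 16.3 CPM in the KD (log2 fold change 0.57, unadjusted p = 0.00698). Its receptor gene dome had 229 and 216 CPM in the controls and 220 and 233 CPM in the KD. spi, a ligand of the EGF receptor, had 336 and 317 CPM in the controls and 274 and 297 CPM in the KD (log2 fold change -0.19, unadjusted p = 0.0404). No tested member of the Notch (6), BMP (8) or Hedgehog (6) lists reached an unadjusted p under 0.05, and their medians were -0.07, -0.04 and -0.001.

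Of 25 immune and antiviral genes only 8 were tested, and the rest were too low to pass the filter. Among the rest, 4 were at 0 in all 4 libraries, the antimicrobial peptide genes DptA and Mtk among them. pirk, an inhibitor of the Imd pathway, had 30.7 and 25.7 CPM in the controls and 36.7 and 40.1 CPM in the KD (log2 fold change 0.45, unadjusted p = 0.0046). vir-1, a gene induced by viruses, had 21.1 and 24.8 CPM in the controls and 27.4 and 32.8 CPM in the KD (log2 fold change 0.39, unadjusted p = 0.0171). Rel, the transcription factor of the Imd pathway, stayed between 145 and 150 CPM. Of 14 heat shock genes 11 were tested, with a median of 0.05. Hsp70Bbb had 0 and 0.68 CPM in the controls and 1.03 and 1.33 CPM in the KD, but the Hsp70 copies are near-identical and their split is uncertain. Of 125 cuticle protein genes only 6 were tested. Cpr62Bc, Cpr64Ac and Pcp had only 1 control above 1 CPM and passed the filter through the KD libraries, which by itself favours positive values, so no count or median of the 6 is read. Their summed level over all 125 genes was 15.3 CPM in both controls and 17.7 to 21.7 CPM in the KD.

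No ribosomal protein gene was called. Of 92 cytoplasmic ribosomal protein genes 87 were tested, with a median of 0.06 against -0.003 over all genes (0.03 without EGFP KD replicate 2 and 0.02 without Mod(mdg4)-N KD replicate 2), and 25 were higher and 2 lower without overlap. RpL13 was the lowest of them, at -0.37, and the next lowest p was that of RpL38, with 733 and 722 CPM in the controls and 784 and 863 CPM in the KD (log2 fold change 0.18, unadjusted p = 0.0487). Of the 72 mitochondrial ribosomal protein genes, all tested, 18 were higher and 6 lower without overlap, with a median of 0.04, which became -0.006 without EGFP KD replicate 1, 0.088 without EGFP KD replicate 2, 0.066 without Mod(mdg4)-N KD replicate 1 and 0.009 without Mod(mdg4)-N KD replicate 2. In both lists the shares higher without overlap stand beside 13.5% of all genes.

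**Figure D3:**
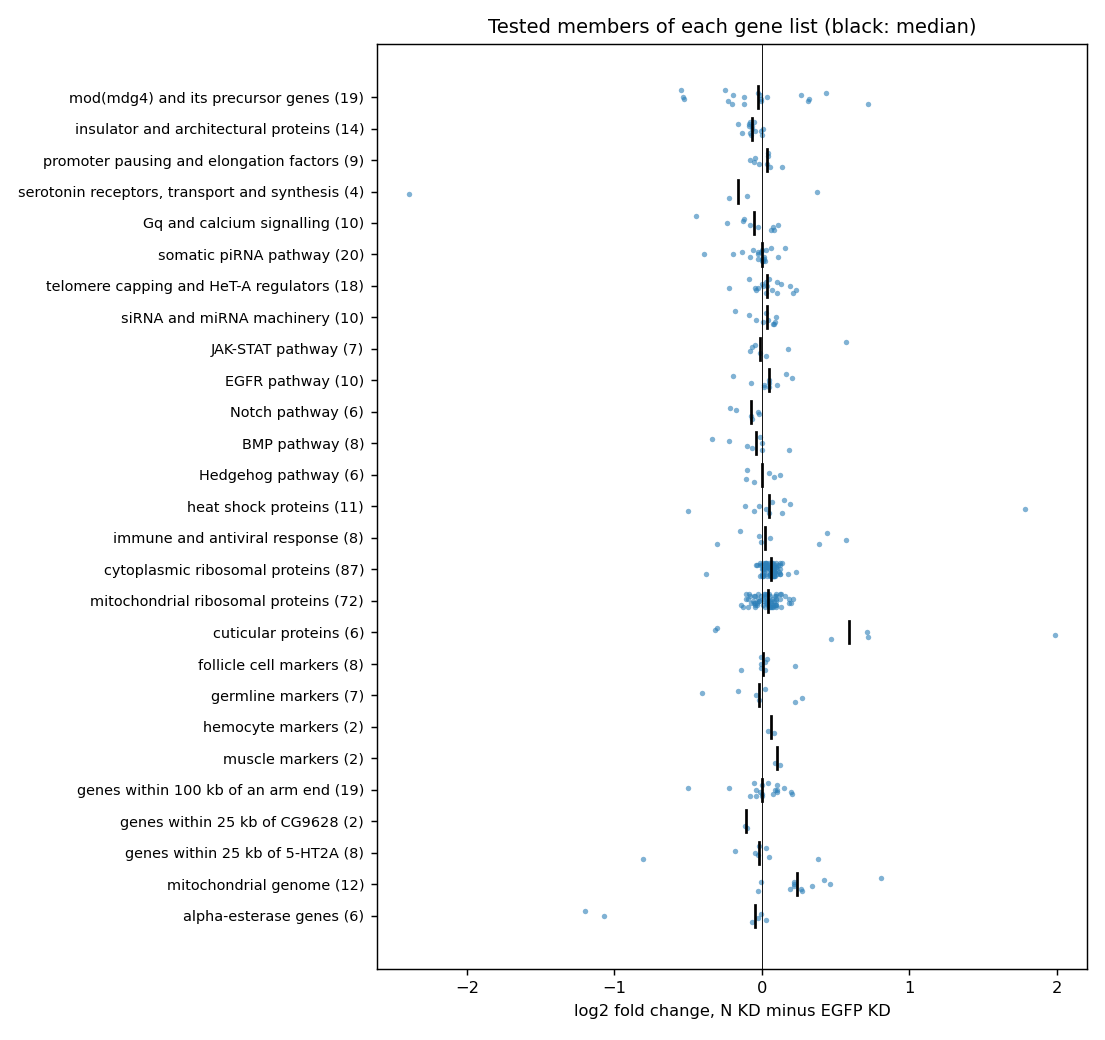
Log2 fold change, Mod(mdg4)-N KD minus EGFP KD (x axis), of the tested members (blue points) of each gene list, with the number tested in brackets and a black bar at the median. Leaving the cuticle protein genes aside, list medians lie close to 0, except for the transcripts of the mitochondrial genome and the serotonin genes. Of the 6 cuticle protein genes, Cpr62Bc, Cpr64Ac and Pcp passed the filter through the KD libraries. This by itself favours positive values, so the median of the 6 is not read. The median is 0.24 for the 12 mitochondrial transcripts and -0.16 for the 4 serotonin genes, where 5-HT2A is the point at -2.39.

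Transcripts of the mitochondrial genome were a set singled out after their values were seen, so they are given as a description. Of 38 genes listed 12 were tested, and 7 had an unadjusted p under 0.05, all higher, where 1.68% of all tested genes were higher at that p. Their median log2 fold change was 0.24, and it was 0.17 to 0.32 with 1 library left out. mt:lrRNA, the large ribosomal RNA, had 30401 and 30691 CPM in the controls and 37023 and 40527 CPM in the KD (log2 fold change 0.34, unadjusted p = 0.00055, edgeR adjusted p = 0.665). mt:CoIII, a subunit of cytochrome oxidase, had 5433 and 5424 CPM in the controls and 6348 and 6310 CPM in the KD (log2 fold change 0.22). mt:ND1, a subunit of NADH dehydrogenase, had 348 and 323 CPM in the controls and 491 and 409 CPM in the KD (log2 fold change 0.42, edgeR adjusted p = 1.00). For these 3 genes the controls were close together and both KD libraries were higher. mt:ATPase6 had 837 and 862 CPM in the controls and 931 and 736 CPM in the KD, and mt:ND4 had 509 and 569 CPM in the controls and 630 and 442 CPM in the KD, so both overlapped. The summed level over the mitochondrial genome was 49899 and 50554 CPM in the controls and 60337 to 62426 CPM in the KD. These TMM-normalized CPM are relative to the other genes, whose median log2 fold change was -0.003. Absolute amounts of mitochondrial or other RNA were not measured.

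**Figure D4:**
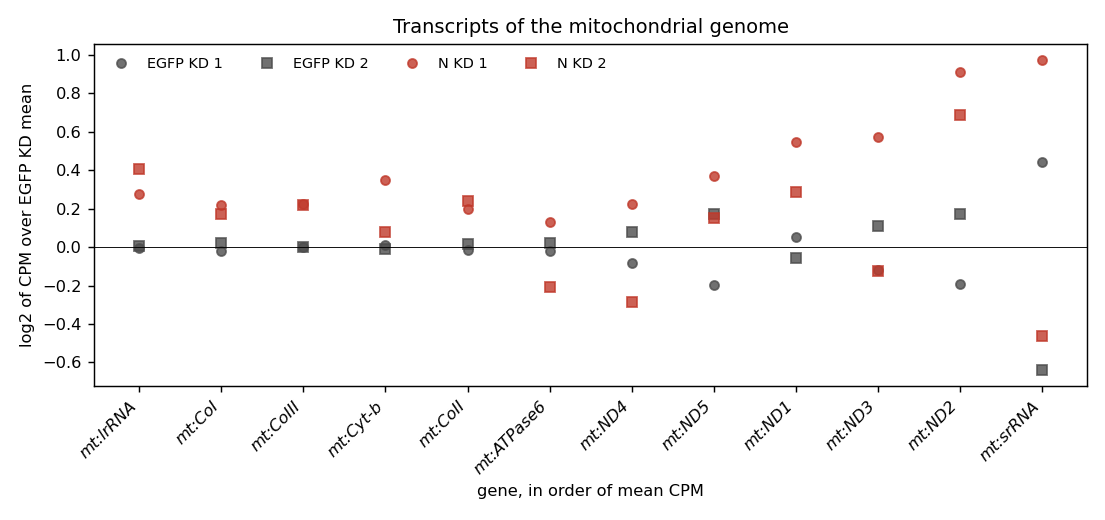
Log2 of the CPM over the EGFP KD mean (y axis) for the 12 tested transcripts of the mitochondrial genome, ordered by level (x axis), in the 2 EGFP KD libraries (grey) and the 2 Mod(mdg4)-N KD libraries (red), with circles for replicate 1 and squares for replicate 2. Both red points lie above both grey ones in 7 genes, mt:lrRNA and mt:CoIII among them, while mt:ATPase6 and mt:ND4 overlap.

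Markers of follicle cells were expressed in all 4 libraries, as were some markers of other cell types. All 8 follicle cell markers were tested, with zfh1 at 547 and 497 CPM in the controls and 543 and 498 CPM in the KD, and tj at 398 and 366 CPM in the controls and 398 and 378 CPM in the KD. Fas3, an adhesion molecule of follicle cells, had 33.1 and 30.2 CPM in the controls and 35.5 and 38.7 CPM in the KD (unadjusted p = 0.0469). Of 10 germline markers 7 were tested: vas stayed at 2.38 to 3.96 CPM and otu at 0.0542 CPM or less, while krimp stood at 170 to 188 CPM. bam had 11.5 and 11.4 CPM in the controls and 8.41 and 8.90 CPM in the KD (log2 fold change -0.40, unadjusted p = 0.0213). The summed germline markers were 194 to 211 CPM in the controls and 197 to 209 CPM in the KD. NimC1, a blood cell marker, was at 0 in all 4 libraries, as were the muscle gene up and the fat body genes Fbp1 and Fbp2. The neuronal genes nSyb, Syt1 and brp had at most 0.77 CPM. Other markers of these cell types were expressed. Over the 4 libraries the blood cell genes srp and Pxn had 20.5 to 24.8 and 14.5 to 17.6 CPM. The muscle genes sls and Mhc had 191 to 227 and 33.0 to 39.4 CPM, and the neuronal gene elav had 62.6 to 67.8 CPM.

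In the KD of all Mod(mdg4) variants, which shares the EGFP KD libraries and so is not an independent repeat, mod(mdg4) had 108 and 109 CPM. CG9628 had 1.37 and 0.477 CPM (log2 fold change -3.97, SE 0.40, edgeR adjusted p = 0.0120, range over 8 other settings 9.6e-15 to 0.0735) and 5-HT2A had 1.75 and 2.18 CPM (log2 fold change -2.89, SE 0.22, edgeR adjusted p = 0.00586, range 5.0e-14 to 0.0591). Both passed the test there, as did 1.10% of the 8126 genes tested, and for both the call was lost on leaving out EGFP KD replicate 2 (adjusted p = 0.0697 for CG9628 and 0.0591 for 5-HT2A), and for CG9628 also on leaving out EGFP KD replicate 1 (adjusted p = 0.0735). CG13982 had 0.609 and 0.273 CPM (log2 fold change -3.01, SE 0.44, edgeR adjusted p = 0.0395, lost with limma-voom at 0.0547). Being under 1 CPM in both of these KD libraries, it again passed the filter only through the shared controls. lncRNA:CR44317, beside 5-HT2A, had 0.761 and 1.16 CPM (log2 fold change -1.83, edgeR adjusted p = 0.0912). The receptor 5-HT1B, at 4.22 and 3.58 TPM in the Mod(mdg4)-N KD, had 0.26 and 0.25 TPM in the KD of all variants. 5-HT1A was lower there too, at 5.20 and 6.64 TPM, against 13.7 and 11.5 TPM in the EGFP KD libraries. The Mod(mdg4)-N and all-variant KD libraries were not tested against each other for any gene.

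In ovaries, tissue that also holds germline cells, CG9628 had 23.5, 17.5 and 21.4 CPM in the wild type and 4.78, 10.4 and 12.3 CPM in the Mod(mdg4)-N mutant. All mutant libraries were below all wild-type ones, and the log2 fold change was -1.18 (SE 0.35), which missed the threshold (edgeR adjusted p = 0.0607, range over 10 other settings 0.00731 to 0.136), where 18.1% of 7934 genes passed it. 5-HT2A was too low to test in ovaries, with 0.856, 0.239 and 0.430 CPM in the wild type and 0, 0.158 and 0.0961 CPM in the mutant. CG13982 had 3.24, 3.94 and 0 CPM in the wild type and 0, 0 and 0.048 CPM in the mutant, so the wild-type libraries themselves disagreed and no test was made. In these bulk samples fewer cells that express a gene and less RNA per cell cannot be told apart. The sources used here do not say whether mutant and wild type share a strain background. A difference in background and the loss of the variant therefore cannot be told apart either. The 12 mitochondrial transcripts were singled out from their values in the Mod(mdg4)-N KD. In the KD of all variants, set against the same EGFP KD libraries, 11 had a positive log2 fold change (median 0.33). There 0 of them passed the edgeR test, beside 1.10% of all tested genes. All 12 had a positive log2 fold change in the ovary (median 0.56) and 4 passed the test as higher, where 11.7% of all genes were higher.

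**Figure D5:**
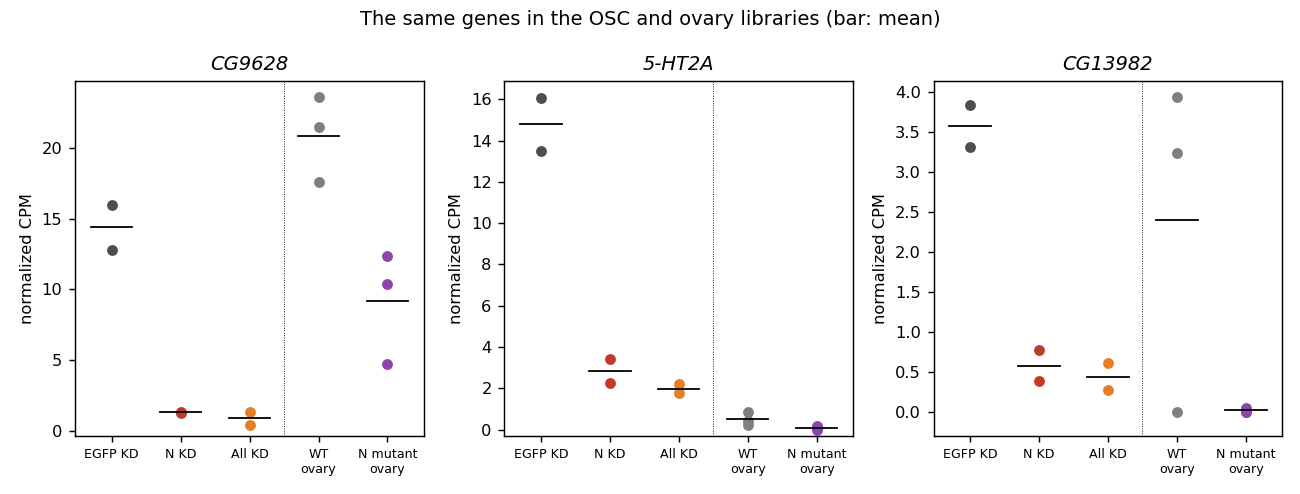
Normalized CPM (y axis) of CG9628, 5-HT2A and CG13982 in the EGFP KD, Mod(mdg4)-N KD and all-variant KD libraries of OSC (2 each) and in wild-type and Mod(mdg4)-N mutant ovaries (3 each, right of the dotted line), with a bar at each mean. OSC and ovary values were normalized separately. CG9628 has at most 1.37 CPM in both KDs and 4.78 to 12.3 CPM in the mutant ovary, while 5-HT2A is at 0.856 CPM or less in every ovary library.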

How the data were processed

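Poly(A)+ RNA was sequenced from libraries made with a stranded kit. The authors mapped the paired-end reads to dm6 with STAR and estimated expression with RSEM (versions not given in the sources used here), and they deposited a table per library with expected counts, TPM, and other columns on transcript length in bases that RSEM weights by isoform. The 4 libraries summed to 14455614 to 18546726 expected counts, and 3 counts correspond to 0.162 to 0.208 CPM. Of the 17807 genes, 17710 matched the Ensembl annotation of the same build, which gave names and coordinates. Promoter and siRNA positions were read from the RefSeq genome of that build, and siRNAs from the supplement of the study.

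Expected counts were rounded to whole numbers, and 15.9% of nonzero values were not whole as deposited. Genes above 1 CPM in at least 2 of 4 libraries (3 of 6 for ovaries) were fitted with edgeR 4.0.16 in R 4.3.3 (TMM, quasi-likelihood F test without a block, Benjamini-Hochberg over all tested genes, threshold 0.05, no fold limit). CPM are TMM-normalized, SEs were derived from the log2 fold change and F, and the fit was checked on simulated data. DESeq2 1.42.0 and limma-voom (limma 3.58.1) were alternatives, beside RLE size factors, other filters, the newer edgeR algorithm, 1 fit of 3 groups, a replicate block and leaving out each library. Replicates of a group differed beyond sampling noise (chi-square per degree of freedom 12.4 and 6.91).

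Named genes were mod(mdg4), all called genes, up to 10 in each direction with the largest difference among those with unadjusted p under 0.05 and no overlap, genes called with the block, 2 by level and 2 by p from each list (those described in the text), and the tested neighbours of called genes. The members and lists were chosen with earlier results of these data known. Each list is described by counts and its median, with no test of the list. ChIP-seq and Micro-C samples were not analysed here.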

Additional observations from a re-analysis of the deposited data

How the results depend on the processing

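The calls of CG9628 and 5-HT2A kept their direction in all 12 other settings. The number of called genes was 2 with RLE size factors, the newer edgeR algorithm and the filterByExpr filter. It was 7 with DESeq2, 1 with limma-voom, 26 with no filter (12497 genes tested), and 0 with the 3 OSC groups in one fit. Leaving out 1 library gave 3 to 45 calls, with the lone library of a group assumed to vary like the other group. The number of genes with a 2-fold or larger difference was 57 with filterByExpr, 2111 with no filter and 48 to 64 with 1 library left out. With a replicate block 14 genes were called, 7 higher and 7 lower, but the same number marks no shared culture in the labels, and the correlation of the deviations of same-numbered libraries was 0.238. The causes of these changes were not tested, beyond the genes of few reads that looser filters add. No named gene reversed a called difference. Most genes with 2-fold differences had a level under 2 CPM (19 of 30), beside 7.12% of all tested genes. Whether read depth accounts for this was not tested.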
